A study of Rattus norvegicus with 6 samples.

Results

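Matrix metalloproteinases (MMPs), their tissue inhibitors (TIMPs) and the membrane-anchored inhibitor Reck were described in Achilles tendons of rats taken on post-natal day 7 and post-natal day 1. The 10 genes, Mmp2, Mmp3, Mmp9, Mmp11, Mmp13, Mmp14, Timp1, Timp2, Timp3 and Reck, were chosen by name from 14217 genes that an Affymetrix rat array measured with a probe set of their own. There were 3 arrays per age, every one hybridised with the RNA of a pool of at least 2 animals, so that a p-value measures the spread between these pools. The labels name no treatment, genotype, strain or sex. The animals of both ages were newborn or suckling pups, which limits the comparison to the first post-natal week. In whole tendon RNA, fewer cells of a type and less RNA per cell cannot be told apart.

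MMPs are zinc-dependent endopeptidases that cut collagens, proteoglycans and other matrix proteins, and most are secreted as inactive precursors. TIMPs bind the active site of these enzymes, and the membrane-type protease Mmp14 together with Timp2 can activate the precursor of Mmp2 at the cell surface. In growing tendon such proteases take part in the turnover of collagen fibrils, and Mmp14 is needed for normal tendon growth in the mouse.

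Mmp3 rose between the ages and was the single gene among the 10 past the threshold, an adjusted p under 0.05. Timp2 was higher on every day 7 array than on every day 1 array and stood at the threshold. Over all genes, 1.93% were called higher and 3.15% lower on day 7 by the same rule (limma, Benjamini-Hochberg over all probe sets), so 1 higher call and no lower call among 10 genes is a small count. At an unadjusted p under 0.05, Mmp2, Mmp3, Timp2 and Timp3 were higher and none was lower, against 10.6% of all genes that were higher and 17.0% that were lower by that rule. The median log2 change of the 10 genes was 0.25, beside -0.01 over all genes. For 3 of the genes, Mmp3, Timp2 and Timp3, the lowest day 7 value exceeded the highest day 1 value, and for 1, Mmp11, the reverse held. Such separation was found upward in 14.0% and downward in 19.1% of all genes. After quantile normalization 352 genes were higher and 320 lower, beside 274 and 448 on the values as deposited.

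Promoters of 3 of these genes are shown because they set the gene that rose (Mmp3) beside a neighbour that stayed near background (Mmp13) and beside the inhibitor with the next smallest p (Timp2). They are RefSeq sequences of the rat assembly GRCr8, 300 bases each, from 250 before to 50 after the annotated start, 5′ to 3′ on the gene's strand. Capitals mark 3 short motifs searched on both strands: the AP-1 site TGAGTCA, the ETS letters AGGAAG and the TATA box letters TATAAA. None of these overlap here. The ETS letters extend the core GGAA, which was not searched on its own.
Mmp3, chr8:12925031-12925330, plus strand: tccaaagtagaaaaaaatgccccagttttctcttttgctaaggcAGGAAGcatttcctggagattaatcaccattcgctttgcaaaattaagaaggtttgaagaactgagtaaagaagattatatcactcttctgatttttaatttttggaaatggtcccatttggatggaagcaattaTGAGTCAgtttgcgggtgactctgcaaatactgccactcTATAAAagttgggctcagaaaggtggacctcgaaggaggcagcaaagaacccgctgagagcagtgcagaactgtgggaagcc
Mmp13, chr8:12782579-12782878, plus strand: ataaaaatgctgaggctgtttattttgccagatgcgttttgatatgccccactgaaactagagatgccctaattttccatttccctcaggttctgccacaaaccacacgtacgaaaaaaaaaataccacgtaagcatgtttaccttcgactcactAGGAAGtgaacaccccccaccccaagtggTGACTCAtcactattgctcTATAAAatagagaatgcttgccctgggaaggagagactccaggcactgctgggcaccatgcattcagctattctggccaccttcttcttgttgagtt
Timp2, chr10:104089165-104089464, minus strand: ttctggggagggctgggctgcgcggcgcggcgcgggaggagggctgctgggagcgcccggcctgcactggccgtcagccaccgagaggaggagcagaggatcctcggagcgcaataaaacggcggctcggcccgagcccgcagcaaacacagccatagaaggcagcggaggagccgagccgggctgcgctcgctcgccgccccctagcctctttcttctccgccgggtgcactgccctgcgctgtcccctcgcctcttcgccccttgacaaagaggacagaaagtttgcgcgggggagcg
In the Mmp3 promoter the AP-1 letters began at position -71 and the TATA letters at -32, counted from the annotated start. The Mmp13 promoter held the AP-1 letters on the opposite strand from -66 and the TATA letters from -47. Each of these also held the ETS letters AGGAAG at 1 place, from -206 in Mmp3 and from -95 in Mmp13. The AP-1 letters occurred in 4.63% of 33469 rat promoters of this length, the TATA letters in 14.2% and the ETS letters in 34.5%. Of the 7 genes with a promoter entry, Mmp3 and Mmp13 were the ones with AP-1 or TATA letters. Timp1 held the ETS letters at 2 places. The base composition differed likewise, with 42.0% G and C in Mmp3 and 45.3% in Mmp13, against 70.3% in Timp2, 68.7% in Timp3, 70.3% in Reck, 68.0% in Mmp11 and 61.3% in Timp1 (median of all promoters 51.7%). Mmp2, Mmp9 and Mmp14 had no entry. A letter match is a description of sequence, and a window without a match says nothing of the factor.

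**Figure D1:**
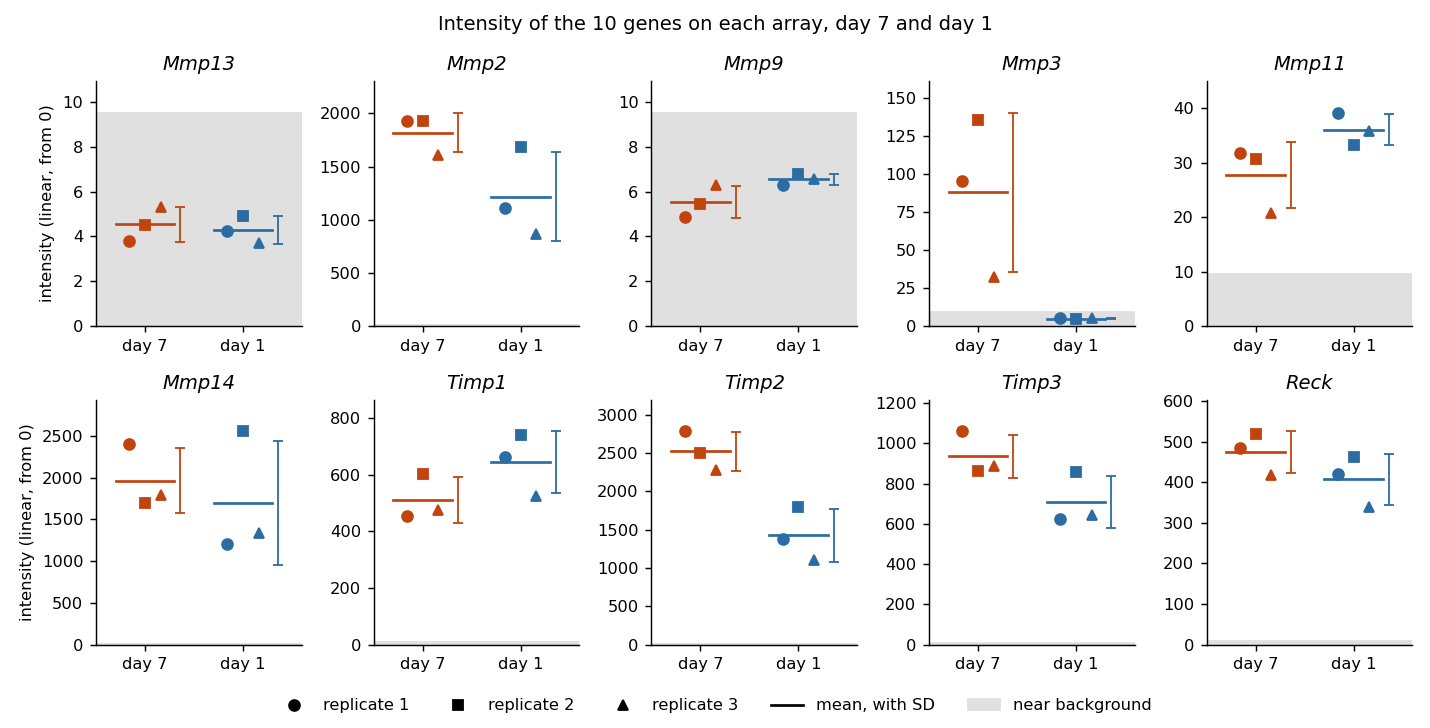
Intensity of the 10 genes on each array (vertical axes linear and from 0, one scale per gene), with day 7 in orange left of day 1 in blue. Points are arrays, horizontal lines means and bars SD (n = 3). The grey band marks values near background, where Mmp9 and Mmp13 lay on all 6 arrays and Mmp3 on day 1, while Mmp3 reached 32.1 to 135.7 on day 7.

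Stromelysin 1, encoded by Mmp3, cuts proteoglycans, fibronectin and several collagens and can activate other MMP precursors. Its intensity was 95.6, 135.7 and 32.1 on day 7 (replicates 1, 2 and 3), against 4.99, 4.4 and 5.25 on day 1. All day 1 values lay near background, defined as at or below 2 times the highest probe set of the bacterial trp control on the same array, which put the limit between 8.36 and 9.51. The lowest day 7 value was still above that limit, and the day 7 arrays differed widely among themselves. With the day 1 values raised to that limit, the day 7 level was 7.67-fold higher, as a ratio of geometric means of intensity + 1. This ratio is a lower bound only as to the day 1 background, and it leaves out the spread between the day 7 arrays. The fit gave a log2 change of 3.69 (SE 0.45; limma adjusted p = 0.0141), which depends on the pseudocount because the day 1 level is background. With a pseudocount of 16 the change was 2.16 and did not pass (adjusted p = 0.0604). Of the 6 fits that left out 1 array, 4 kept the call, and it was lost when day 1 replicate 1 (adjusted p = 0.0554) or day 7 replicate 1 (0.0793) was the array left out. Without both arrays numbered 2 the change was 3.21 (adjusted p = 0.0307).

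Mmp3 lies in a run of 10 MMP genes on rat chromosome 8, of which 6 were measured. The other measured genes of the run were near background on at least 5 of the 6 arrays: Mmp13, Mmp12, Mmp10, Mmp8 and Mmp7. Mmp12, macrophage elastase, read 5.80, 9.15 and 6.24 on day 7, against 4.58, 5.81 and 5.0 on day 1 (log2 change 0.38; adjusted p = 0.243). Mmp10, stromelysin 2, read 4.63 to 5.71 on day 7 and 4.36 to 5.17 on day 1. The signal seen at Mmp3 was thus not seen at its measured neighbours. Mmp1, Mmp1b, Mmp20 and Mmp27 of this run were not analysed here.

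Collagenase 3, Mmp13, cuts fibrillar collagens. It read 3.78, 4.52 and 5.33 on day 7, against 4.24, 4.93 and 3.70 on day 1, all near background. The log2 change was 0.06 (95% interval -0.27 to 0.40), and no fold change can be read from values at this level. The gelatinase Mmp9, abundant in neutrophils and osteoclasts, was likewise near background. Its brighter probe set read 4.89, 5.46 and 6.305 on day 7 and 6.29, 6.80 and 6.57 on day 1, while its other probe set ranged over 4.92 to 5.41 on day 7, against 4.64 to 5.27 on day 1. These arrays thus gave no usable level for Mmp9 or Mmp13 at either age.

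The gelatinase Mmp2, made by fibroblasts, gave a bright signal. It read 1926, 1925 and 1606 on day 7, against 1107, 1679 and 865 on day 1. The groups overlapped, since day 1 replicate 2 lay above the lowest day 7 array. The log2 change was 0.63 (SE 0.23; 95% interval 0.10 to 1.16; adjusted p = 0.163), and without day 1 replicate 2 it was 0.89 and passed (adjusted p = 0.0409). A second Mmp2 probe set read 5.59 to 7.64 and was near background on all arrays, so it could not serve as a check.

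Mmp14, the membrane-type protease, had the largest standard error of the 7 genes that were clear of background on all arrays. Its brighter probe set read 2408, 1692 and 1787 on day 7, against 1209, 2553 and 1332 on day 1. Day 1 replicate 2 was the highest of all 6 arrays, and the groups overlapped. The log2 change was 0.27 (SE 0.28; adjusted p = 0.612), and 0.61 without day 1 replicate 2 (adjusted p = 0.107). The other probe set read 439.9, 437 and 349 on day 7 and 265, 363 and 169.7 on day 1, and its log2 change came to 0.68 (SE 0.26; adjusted p = 0.177). Neither probe set passed, and the 95% interval of the first, -0.38 to 0.93, includes both a fall and a rise.

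Stromelysin 3, Mmp11, first known from the stroma of tumours, was lower on every day 7 array. It read 31.8, 30.6 and 20.7 on day 7, against 39.1, 33.3 and 35.8 on day 1. The groups were set apart narrowly, and the log2 change of -0.39 (SE 0.17; 95% interval -0.79 to 0.01) did not pass (adjusted p = 0.236).

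Among the inhibitors, Timp2 was 1.80-fold higher on day 7. It read 2783, 2505 and 2277 on day 7, against 1384, 1795 and 1101 on day 1, with means of 2522 ± 253 and 1427 ± 349 (SD, n = 3 each). The lowest day 7 array lay above the highest day 1 array. The log2 change was 0.84 (SE 0.18; 95% interval 0.42 to 1.27; limma adjusted p = 0.0501), just short of the threshold. It passed in 8 of 15 alternatives, and over the 15 the adjusted p ran from 0.0225 to 0.171. Of the 6 fits that left out 1 array, 1 passed, the fit without day 1 replicate 2 (limma adjusted p = 0.0334). A dimmer probe set for Timp2 read 85.6, 99.8 and 84.5 on day 7 and 41.3, 59.1 and 34.0 on day 1, and passed on its own (log2 change 1.02, SE 0.20; adjusted p = 0.0366). Both probe sets of this gene were thus higher on each day 7 array than on any day 1 array.

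Timp3, the inhibitor that binds to the matrix and also blocks several ADAM proteases, read 1059, 861 and 887 on day 7, against 624, 856 and 642 on day 1. The gap between the groups was small, because day 1 replicate 2 lay just under the lowest day 7 array. The log2 change was 0.41 (SE 0.16; 95% interval 0.05 to 0.77; adjusted p = 0.174). A second bright probe set gave 0.47 (adjusted p = 0.105), and the dimmer pair gave 0.17 and 0.20 (adjusted p = 0.737 and 0.524). The change was positive for all 4 probe sets and passed for none.

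Timp1, an inhibitor induced by growth factors and inflammation, had the opposite sign. It read 455, 604 and 477 on day 7, against 664, 743 and 526 on day 1, and the groups overlapped (log2 change -0.33; SE 0.17; adjusted p = 0.297). Reck, the anchored inhibitor of Mmp2, Mmp9 and Mmp14, read 485, 519.7 and 419 on day 7, against 421, 463 and 339 on day 1. Its groups overlapped too, and the log2 change was 0.23 (SE 0.15; 95% interval -0.12 to 0.57; adjusted p = 0.419).

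**Figure D2:**
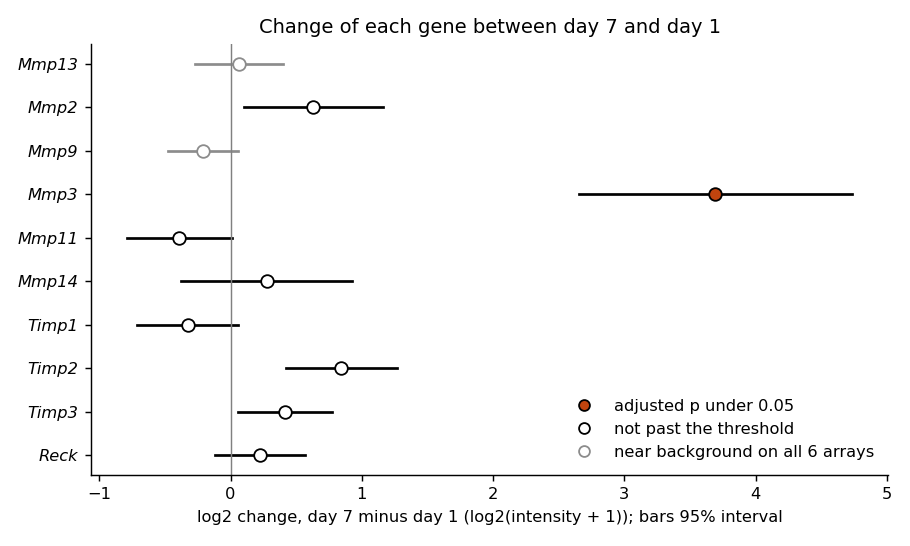
Log2 change of each gene, day 7 minus day 1, on the log2(intensity + 1) scale, with 95% intervals from limma. Mmp3 at 3.69 is the filled point past the threshold, Timp2 at 0.84 is next, and Mmp9 and Mmp13 in grey were near background on all 6 arrays.

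**Figure D3:**
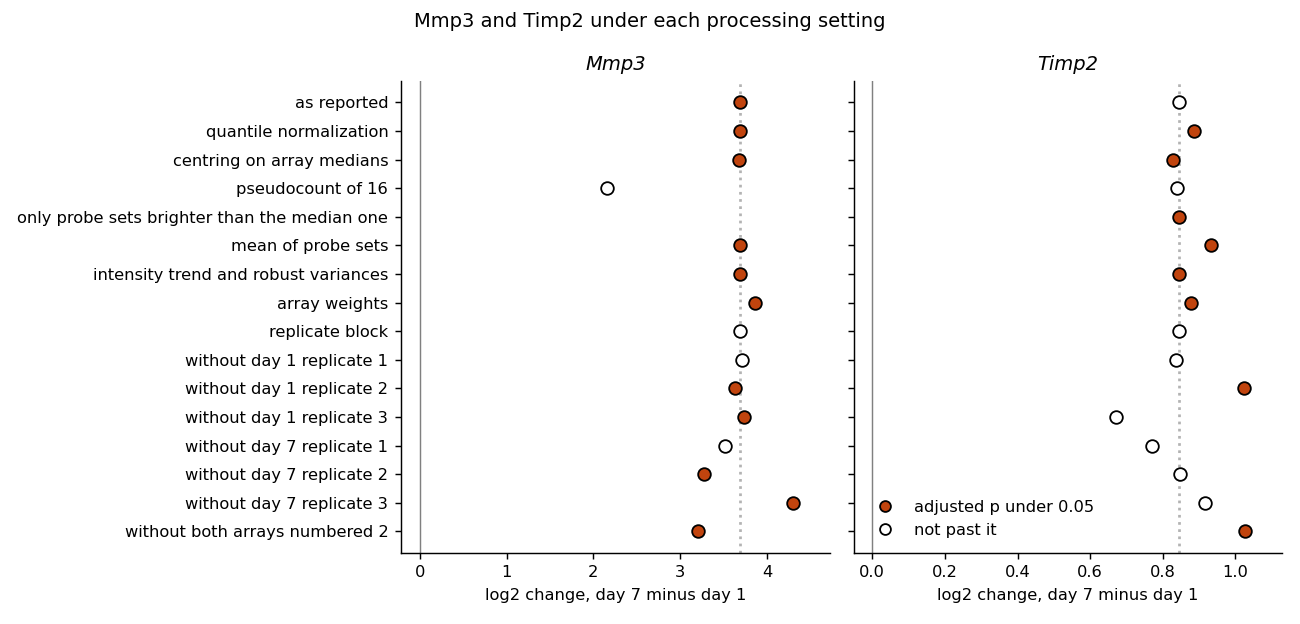
Log2 change of Mmp3 and Timp2, day 7 minus day 1, in each processing setting. Filled points passed an adjusted p under 0.05, and the dotted line marks the value as reported. Mmp3 passed in 10 of 14 alternatives and Timp2 in 8 of 15, and neither changed sign in any of them. Mmp3 has no point where only bright probe sets were kept, because its mean lay below the median probe set.

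Day 1 replicate 2 was the highest day 1 array for 6 of the 7 genes that were clear of background on all arrays, Mmp11 being the other. Of all 10845 genes clear of background, 34.2% had their highest day 1 value on that array. Markers of tendon varied in the same way on day 1. Relative to the mean of the 6 arrays, the median of 9 measured tendon markers was 0.42, 0.15 and 0.11 on day 7, against -0.16, 0.08 and -0.69 on day 1 (log2, replicates 1, 2 and 3). The median of 11 skeletal muscle markers was -0.53, -0.03 and -0.82 on day 7, against 0.46, 0.24 and 0.67 on day 1. The day 1 array with the highest Mmp2, Mmp14, Timp2 and Timp3 was thus also the day 1 array with the least muscle signal and the most tendon signal. It had the highest day 1 median of macrophage markers too, with 0.40 against -0.16 and 0.17 on replicates 1 and 3. The same held for cartilage, adipocyte, nerve, osteoclast and bone markers, but not for endothelial, neutrophil, epidermis and synovium markers. The part of muscle, tendon and other cell type shares in these results was not tested.

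Other cell types were followed through marker lists. Of all genes, 1.93% were called higher and 3.15% lower. At an unadjusted p under 0.05, 10.6% of all genes were higher and 17.0% lower. Cartilage markers summed to 5356 to 8951 on day 7, against 1970 to 4985 on day 1 (10 of 12 measured, 2 called higher, 3 near background on at least 1 array). Adipocyte markers summed to 3164 to 6513 on day 7, against 1601 to 1810 on day 1 (11 of 11 measured, 9 called higher). The bright genes weigh most in this sum, and the median log2 change of the list was 1.97. Of the 11, 4 were near background on at least 1 day 1 array, and none was on a day 7 array. On the day 7 arrays the adipocyte median stood at 1.24, 0.52 and 1.33 (replicates 1, 2 and 3), the reverse of the order of Mmp3. The neutrophil, endothelial and nerve medians had that reverse order too. The muscle median, at -0.53, -0.03 and -0.82, had the same order as Mmp3. The cartilage, tendon, macrophage, osteoclast, bone, epidermis and synovium medians had neither order. An order of 3 arrays can match by accident, and these matches were not tested. Macrophage markers summed to 1149 to 1444 on day 7, against 1319 to 2039 on day 1 (11 of 11 measured). Their median log2 change was -0.27, with 8 negative and 3 positive, and none was called lower. Among these the surface receptor Adgre1 rose, with 48.0, 33.1 and 48.1 on day 7 against 16.3, 18.1 and 20.2 on day 1 (log2 change 1.18; adjusted p = 0.0190). The scavenger receptor Cd163 (log2 change -1.01; adjusted p = 0.0988) and the complement genes C1qb (-0.90; 0.108) and C1qc (-0.64; 0.137) had lower values on every day 7 array and did not pass. Neutrophil markers summed to 109 to 116 on day 7, against 165 to 290.2 on day 1 (5 of 10 measured, 2 of them near background on all arrays), and S100a9 was called lower. Osteoclast markers summed to 995 to 1229 on day 7, against 658 to 1010.4 on day 1. Of the 8 listed, 4 were measured, none was called, and 3 were higher at an unadjusted p under 0.05. Ctsk made most of this sum, with 664 to 834 on day 7 and 423 to 706 on day 1. Calcr, near background on 2 arrays of each age, had a log2 change of -0.05. Bone and hypertrophic cartilage markers, cell types known for Mmp13, were near background on all arrays for 4 of 7 measured, and none was called or had an unadjusted p under 0.05. Of the synovium list, 1 of 4 was measured and not called. Epidermis markers (6 of 8 measured) summed to 167 to 428 on day 7, against 149 to 5019 on day 1, the high value being day 1 replicate 1. Endothelial markers (7 of 8 measured, 1 called higher) had a median log2 change of 0.07, and nerve markers (7 of 9 measured, 1 called higher and 1 lower) one of 1.27. The nerve median relative to the mean of the 6 arrays was 0.67, -0.70 and 0.97 on day 7, against -0.60, -0.38 and -0.65 on day 1, so day 7 replicate 2 lay below every day 1 array. The tendon list itself summed to 42683 to 56343 on day 7, against 24486 to 41685 on day 1. None of its 9 measured genes was near background on any array, and the bright genes weigh most in this sum. Of the 9, 7 had a positive change and 2 a negative one. Comp was called higher (log2 change 2.28) and Egr1 lower (-1.46). The part of these cell types in the Mmp3 result was not tested.

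**Figure D4:**
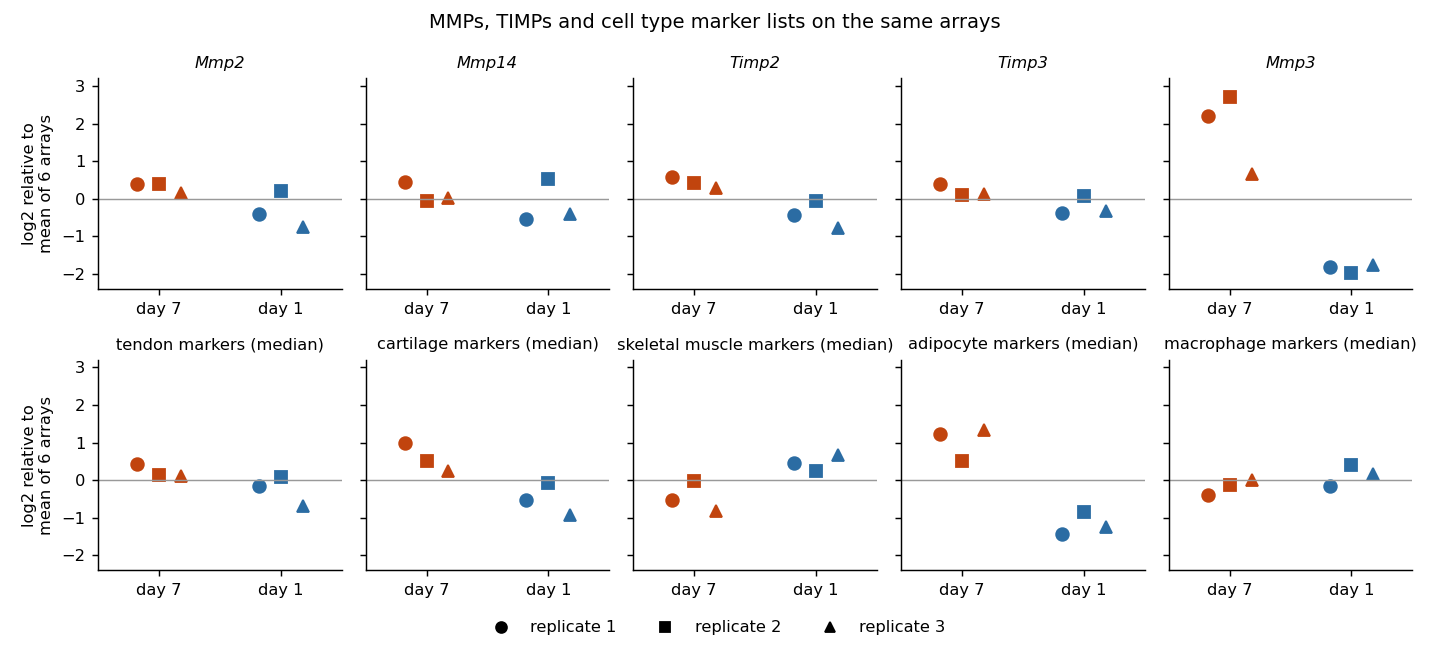
Log2 level of 5 genes (top) and median over cell type marker lists (bottom) on each array, relative to the mean of the 6 arrays. Day 7 is orange and left of day 1 in blue, and symbols mark the replicate. Day 1 replicate 2 (squares) is the highest day 1 array for Mmp2, Mmp14, Timp2, Timp3, tendon and cartilage markers and the lowest for muscle markers.

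The genes whose profiles over the 6 arrays were most like that of Mmp3 were found by the root mean square difference of log2 values, each gene centred on its own mean. They were Thrsp (0.65), Cpxm2 (0.69), Cpz (0.69), Slc7a11 (0.87) and Myh2 (0.88). Thrsp is a regulator of fatty acid synthesis and a gene of the adipocyte list. Cpxm2 and Cpz are members of the carboxypeptidase family, and Slc7a11 is a cystine transporter. Myh2 is a fast myosin heavy chain and a gene of the skeletal muscle list. Of the 11 measured genes of that list, 10 had a negative change and Myh2 alone a positive one. Thrsp read 158, 110.3 and 121 on day 7 and 6.68, 9.23 and 9.49 on day 1, so it also rose out of the lowest range of the array. Profiles near that of Timp2 were much closer in this measure, with Col14a1 at 0.0646, Inf2 at 0.0647, LOC100910558 at 0.0756, Dap at 0.0768 and Creb3l1 at 0.0885. Col14a1, a collagen found on the surface of fibrils, read 6753, 5613 and 5494 on day 7 and 3332, 4692 and 2698 on day 1 (log2 change 0.77; adjusted p = 0.0794). These lists rest on 6 arrays and are a description.

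Of the other MMPs and Timp4, 12 of 16 were measured and none was called in either direction (median log2 change 0.05). At an unadjusted p under 0.05, 2 were higher and none lower, beside 10.6% and 17.0% of all genes. Mmp23 read 409.6, 420.4 and 393 on day 7, against 238, 373 and 234 on day 1, with a log2 change of 0.57 (adjusted p = 0.126). Mmp16, a membrane-type protease, had a change of 0.40 (adjusted p = 0.166) and Mmp19 one of -0.33 (0.270). Mmp23 and Mmp16 were higher on every day 7 array than on any day 1 array, without passing. They were 2 of the 12 measured, and such separation was found upward in 14.0% of all genes.

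Of 23 measured genes (27 listed) that activate, dock or clear MMPs, 1 rose and none fell (median 0.07). Over all genes, 1.93% were called higher and 3.15% lower. At an unadjusted p under 0.05, 6 of the 23 were higher and 3 lower, beside 10.6% and 17.0% of all genes. The gene that rose was Pcsk6, a proprotein convertase of the furin family. It read 199, 174 and 130.3 on day 7, against 81.9, 91.0 and 72.8 on day 1, a 2.01-fold difference (log2 change 1.01, SE 0.17; limma adjusted p = 0.0282). The hyaluronan receptor Cd44, to which Mmp9 can bind, read 102, 163 and 116 on day 7 and 222, 188 and 222 on day 1 (log2 change -0.75; adjusted p = 0.0636). The integrin chain Itgb3 had a change of -0.55 (0.106) and the tight junction protein Cldn1 one of 0.55 (0.150). Furin itself had a change of 0.05 (adjusted p = 0.852).

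Of 25 measured inducers and transcription factors of MMP genes (28 listed), none rose and 2 fell (median -0.08). Over all genes, 1.93% were called higher and 3.15% lower. At an unadjusted p under 0.05, 1 of the 25 was higher and 5 lower, beside 10.6% and 17.0% of all genes. Fos, a subunit of the AP-1 factor, read 39.3, 24.4 and 31.8 on day 7, against 74.2, 118 and 235 on day 1 (log2 change -1.99; adjusted p = 0.0362). Egr1 read 272, 294 and 326 on day 7, against 589, 1011 and 919 on day 1 (log2 change -1.46; adjusted p = 0.0180). The cytokine Il1b read 12, 12.4 and 17.9 on day 7 and 9.31, 8.98 and 9.33 on day 1, close to the background limit at both ages (log2 change 0.55; adjusted p = 0.0954). Cebpb had a change of -0.82 (adjusted p = 0.0959). The Mmp3 promoter shown above holds the AP-1 letters, and whether Fos bears on Mmp3 was not tested.

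Of 15 matrix substrates, all measured, 1 rose and none fell (median 0.13). Over all genes, 1.93% were called higher and 3.15% lower. At an unadjusted p under 0.05, 6 of the 15 were higher and 1 lower, beside 10.6% and 17.0% of all genes. Decorin, Dcn, a small proteoglycan that Mmp3 can cut, read 6741, 6117 and 5753 on day 7, against 3531, 4113 and 3136 on day 1 (1.73-fold; adjusted p = 0.0277). Col2a1 had a log2 change of 1.33 (adjusted p = 0.0932), the aggrecan gene Acan one of 1.07 (0.147) and elastin, Eln, one of 0.77 (0.117). For these 3 the change was upward but short of the threshold.

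**Figure D5:**
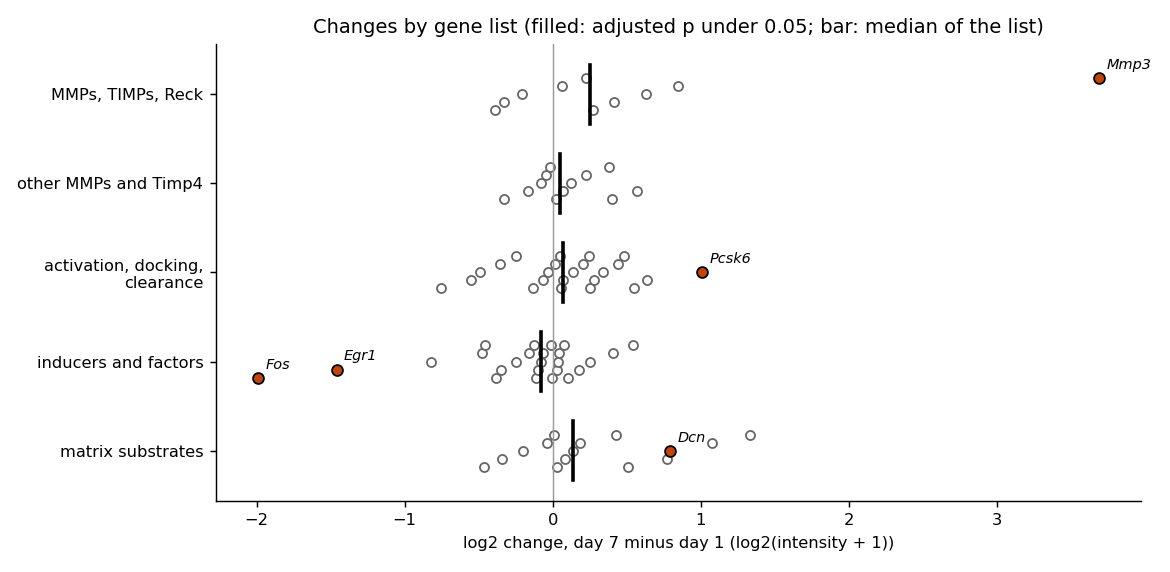
Log2 change of each gene, day 7 minus day 1, in the 10 genes and in 4 related lists. Filled points passed an adjusted p under 0.05 and are named, and bars mark the list medians, which run from -0.08 for inducers and factors to 0.25 for the 10 genes.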

How the data were processed

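RNA of 6 tendon pools was hybridised to an Affymetrix rat array. The authors deposited a linear-scale intensity for each probe set. The submitters' processing notes list MAS5 and RMA but no steps, so how background and scale were treated is unknown. A scale difference between ages could move every gene. The array medians ran from 20.57 to 21.14. After centring on them, the log2 change was 3.675 for Mmp3 and 0.83 for Timp2. The values were taken as log2(value + 1). Day 7 was compared with day 1 by limma 3.58.1 in R 4.3.3 (lmFit and eBayes, two-sided). P-values were Benjamini-Hochberg adjusted across the 31042 probe sets left after 57 controls were removed. A gene was represented by its brightest probe set among those that the platform annotation assigns to 1 symbol. The 10 genes had 17 such probe sets, 5 genes having several. Precision is limited by 3 arrays per age and by signal over background, since the trp controls read 3.74 to 4.76. All 10 genes were named, with up to 4 genes of each list by smallest p and every called gene of the 4 related lists; Furin, Adgre1, S100a9, Mmp10 and the genes most like Mmp3 and Timp2 were also given, as were Cd163, C1qb and C1qc, these 3, Furin and Mmp10 after their values were seen. The genes, lists and tests were chosen with earlier results of these data known. The fit was tested on simulated data. Promoters were read from RefSeq.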

Additional observations from a re-analysis of the deposited data

How the results depend on the processing

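On the values as deposited 274 genes were called higher and 448 lower on day 7, and 1 of the 10 genes was called. Leaving out 1 array gave 4 to 271 higher and 0 to 382 lower genes, and 0 to 3 of the 10 genes: none without day 1 replicate 1 or day 7 replicate 1 (2 and 3 at an unadjusted p under 0.05), and Mmp2, Mmp3 and Timp2 without day 1 replicate 2. Without day 7 replicate 1 no gene was lower in limma, and 1869 were at an unadjusted p under 0.05. A pseudocount of 16 gave 182 higher genes and 0 of the 10 (4 at an unadjusted p under 0.05). Array weights gave 538 higher and 897 lower genes. Of the 10 genes, 2, Mmp3 and Timp2, were called with quantile normalization, centring on array medians, the mean of probe sets, an intensity trend, array weights, and without both arrays numbered 2. With only bright probe sets Timp2 was called and Mmp3, Mmp9 and Mmp13 were not tested. With the replicate number as a block (replicate block) 25 genes were higher, 8 lower and 0 of the 10 called (Mmp3 adjusted p = 0.0540; 3 at an unadjusted p under 0.05). Deviations of same-numbered arrays correlated at 0.0458, -0.249 and -0.141, and 0 of 3 day 7 arrays correlated best with their own number. These correlations gave no sign that the numbers pair the arrays, but 3 arrays per age cannot exclude it. Of the 10 genes Mmp13, near background, changed sign, with -0.036 to 0.17 without 1 array, and no other did under any alternative. The cause of these differences was not tested.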
